A study of Homo sapiens with 6 samples.

Results

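Long intergenic noncoding RNAs (lincRNAs) are transcripts without a long open reading frame whose genes were annotated between protein-coding genes. The lincRNAs described here are the rows that the deposited count table types as lincRNA, that lie on an autosome and that have a mean raw count of at least 50 over the 6 libraries. Symbols of microRNA and snoRNA host genes (those that begin with MIR or SNHG, GAS5 and DLEU2) were left out, which removed 10 rows at this level. The rule chose 222 of the 29476 rows of the table and of its 3347 autosomal lincRNA rows. The members were thus chosen by their mean raw count, so their levels are a description. The difference between the knockdown and control groups was no criterion of the rule and was tested. That mean covers both groups, so a lincRNA with low counts in either group can pass through its counts in the other. The choice is therefore not fully independent of the change. All 222 passed the expression filter of edgeR and all had a deposited FPKM value, a level per transcript length and library depth. Just inside the minimum were CTD-2314B22.1 and RP11-145G20.1, each with a mean count of 50.2, and just outside it were AC058791.1 with 49.8 and LINC01119 with 49.7.

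The cells were A549, an established human lung adenocarcinoma line. The control group (siCtrl) had 3 biological replicates that received a nontargeting siRNA, and the DDX17 knockdown group (siDDX17) had 3 that received 1 siRNA against DDX17, a DEAD-box RNA helicase that binds and remodels RNA. Both groups were lipid-transfected cultures of the same line, the labels call the control a plasmid where the titles and the protocol give an siRNA, and no harvest time is stated for the RNA-seq cultures. Since 1 siRNA was used and there was no rescue, its effects other than through DDX17 cannot be told apart from those of losing DDX17. RNA was selected for poly(A) and sequenced in stranded libraries, with 30658136 to 39182371 counted reads per library. DDX17 fell from 189 ± 14.95 to 31.1 ± 0.877 CPM (counts scaled to library size with TMM, mean ± SD, n = 3 libraries, as throughout). Its log2 fold change was -2.60 with a standard error (SE) of 0.0685 (adjusted p = 5.89e-11). The A549 and epithelial genes KRT8, KRT18, AKR1B10, AKR1C1 and ALDH1A1 were at 129.99 to 2535 FPKM in all libraries. EPCAM was low at 0.34 to 1.14 FPKM and the alveolar gene SFTPC reached at most 0.1. PTPRC, PECAM1 and DES, markers of leukocytes, endothelium and muscle, reached at most 0.07 FPKM, and the fibroblast gene COL1A1 was at 0.37 to 0.48. Among the control libraries, siCtrl 1 stood apart: the chi-square per gene between its counts and those of siCtrl 2 and 3 was 20.3 and 25.6, against 3.62 to 5.83 for the other pairs within a group.

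Some lincRNAs act where they are made. MALAT1 and NEAT1 stay in the nucleus, where MALAT1 gathers at nuclear speckles, the stores of splicing factors, and NEAT1 is the scaffold of paraspeckles, bodies that hold RNA-binding proteins. Others are decoys in the cytoplasm, such as NORAD, which binds Pumilio proteins, or are transcribed away from the promoter of a coding gene. Many lincRNAs are spliced, capped and polyadenylated like mRNAs but are less abundant, and nuclear decay by the RNA exosome limits a number of them.

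The class name was that of the deposited table, and GENCODE release 44 (GRCh38) now describes many of these genes otherwise. By identifier, 212 of the 222 were found in that release and 10 were not, among them RMRP and CCAT1. Of the 212, 199 are typed as lncRNA, 5 as protein-coding and 8 as another type, and 148 have a new name. The names of 5 are now those of microRNA or snoRNA hosts, which the rule did not remove under their older symbols. Although they were annotated as intergenic, 142 overlap another gene in this release. For 70 of them that gene is on the same strand, for 110 on the other strand, and for 26 it is a protein-coding gene on the same strand. The use of strand in counting is not stated in the sources used here, so reads of a lincRNA and of a gene that overlaps it cannot be told apart. The median spliced length of the canonical transcript was 1792 bases with 2.5 exons, and the median distance to the nearest protein-coding gene was 2342.5 bases. The median level was 1.87 FPKM (range 0.0883 to 33.2), below the median of 5.12 FPKM of protein-coding genes at the same count minimum, and 161 exceeded 1 FPKM and 16 exceeded 10 FPKM.

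Among the 222 lincRNAs, 65 were higher and 39 were lower in the DDX17 knockdown group at an adjusted p under 0.05, and 118 did not pass (edgeR's quasi-likelihood test, Benjamini-Hochberg adjustment over 15615 tested genes). These are 29.3% and 17.6% of the lincRNAs, against 24.5% and 24.3% of all tested genes, and this difference in share was not tested. With an absolute log2 fold change over 1 as well, 11 were upregulated and 12 downregulated, 4.95% and 5.41% of the lincRNAs, against 4.65% and 2.92% of all tested genes. The 3 knockdown libraries lay above the 3 control libraries for 79 lincRNAs and below them for 44, whereas 28.8% and 27.7% of all tested genes were higher or lower without overlap. The median log2 fold change was 0.103, against 0.005 for all tested genes. It was 0.142 for the 262 autosomal antisense RNAs at the same count minimum, of which 82 rose and 36 fell, and -0.023 for the 11177 protein-coding genes, of which 2975 rose and 3223 fell. In the 212 lincRNAs with mean counts of 20 to 50, which the rule left out, 35 rose and 15 fell, and the median was 0.193. Scaling moved the balance: with library size only, in place of TMM, the median of all genes moved from 0.005 to 0.128. The share of upregulated among the lincRNAs that passed went from 62.5% to 73.2%, and among all genes that passed from 50.1% to 67.7%. In bulk RNA, fewer cells that make an RNA and less of that RNA per cell cannot be told apart.

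**Figure D1:**
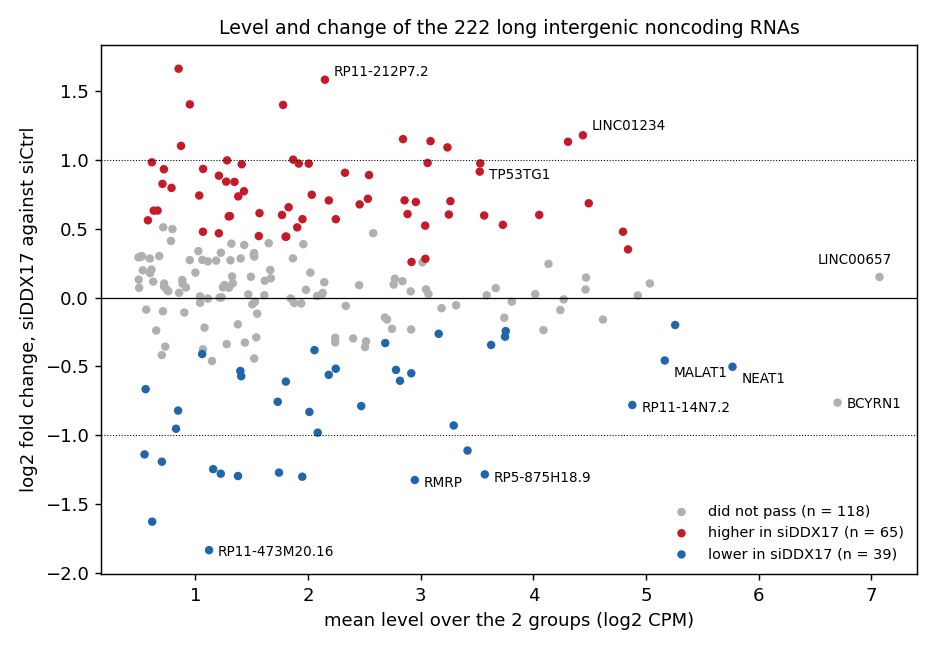
Each point is 1 of the 222 lincRNAs, with its mean level over both groups on the horizontal axis (log2 CPM) and its log2 fold change between siDDX17 and siCtrl on the vertical axis. Red points (65) were higher and blue points (39) lower at an adjusted p under 0.05, grey points (118) did not pass, the dotted lines mark a log2 fold change of 1 in either direction, and the largest changes are seen at low and middle levels.

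MALAT1 and NEAT1 both lie on the plus strand of chromosome 11 and were both lower in the DDX17 knockdown group. MALAT1 (ENSG00000251562.7, 65497640 to 65508073) was at 43.8, 45.0 and 36.0 CPM in siCtrl 1, 2 and 3 and at 31.6, 28.6 and 30.6 CPM in siDDX17 1, 2 and 3. NEAT1 (ENSG00000245532.5, 65422774 to 65445540) was at 75.9, 61.1 and 54.6 CPM in siCtrl and at 47.3, 43.6 and 44.4 CPM in siDDX17. The groups did not overlap for either RNA, and for NEAT1 siCtrl 1 was the highest library. The log2 fold changes were -0.46 for MALAT1 (SE 0.0837, adjusted p = 0.000546) and -0.50 for NEAT1 (SE 0.0968, adjusted p = 0.000792), so that MALAT1 fell by 27.1% and NEAT1 fell by 29.4%. Without siCtrl 1 that of NEAT1 was -0.37. Neither reached the fold limit. TALAM1 overlaps MALAT1 on the other strand, so their reads may be shared. On log2(FPKM + 1) values the change of NEAT1 was -0.25 and no longer passed (adjusted p = 0.0625 from limma).

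The mature end of MALAT1 and of the long isoform of NEAT1 has no ordinary poly(A) tail. It is cut by RNase P and held by a triple helix in which an A-rich tract lies between U-rich motifs. The sequences of these ends are shown because libraries selected for poly(A) may capture such RNAs in part only, through internal A-rich tracts or, for NEAT1, through its short polyadenylated isoform. They were read from the canonical transcripts of GENCODE 44, 5′ to 3′ on the plus strand of GRCh38, at chr11:65506021-65506116 for MALAT1 and at chr11:65445440-65445540 for NEAT1, with T for U, and capitals mark the U-rich motifs and the A-rich tract.
MALAT1: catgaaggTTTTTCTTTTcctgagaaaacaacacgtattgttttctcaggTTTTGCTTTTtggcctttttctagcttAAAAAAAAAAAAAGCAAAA
NEAT1: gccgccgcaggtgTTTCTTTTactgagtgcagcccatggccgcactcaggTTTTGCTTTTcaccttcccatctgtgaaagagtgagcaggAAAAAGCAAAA
The second U-rich motif, TTTTGCTTTT, has the same letters in both. The NEAT1 transcript of 22743 bases ends at this tract, whereas the annotated MALAT1 transcript of 10434 bases runs on for 1957 bases. The counts are per gene, so the isoforms of NEAT1 were not separated.

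Paraspeckles are built on NEAT1 by a set of RNA-binding proteins. Of 29 genes of such proteins that were tested, 14 fell, 6 rose and 9 did not pass, with a median log2 fold change of -0.17, against the shares of 24.3% and 24.5% of all tested genes given above. With library size only, 11 fell and 7 rose. There were 4 past the fold limit, all lower, and 0 higher past it. RBM14, which paraspeckles need in order to form, fell from 167 ± 17.3 to 67.75 ± 3.11 CPM (log2 fold change -1.30, adjusted p = 2.23e-08). FAM98A, a paraspeckle component, fell with a log2 fold change of -1.18 (62.3 ± 7.59 to 27.6 ± 1.39 CPM). HNRNPA1, a splicing regulator, fell with a log2 fold change of -1.03 (640.1 ± 24.8 to 313 ± 13.3 CPM). Of the core proteins NONO, SFPQ and PSPC1, named here after their values were seen, PSPC1 fell from 45.0 ± 0.661 to 24.8 ± 1.84 CPM without overlap (log2 fold change -0.86, adjusted p = 3.92e-07). NONO and SFPQ did not pass, with log2 fold changes of -0.10 and -0.02 (adjusted p = 0.152 and 0.832). Among the 6 that rose, TAF15 went from 103.5 ± 7.32 to 194.9 ± 1.07 CPM without overlap (log2 fold change 0.91, adjusted p = 7.99e-08). ZC3H6, at 0.677 ± 0.263 and 1.37 ± 0.288 CPM, rose with 0.99 (adjusted p = 0.00991). Both were also named after their values were seen.

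**Figure D2:**
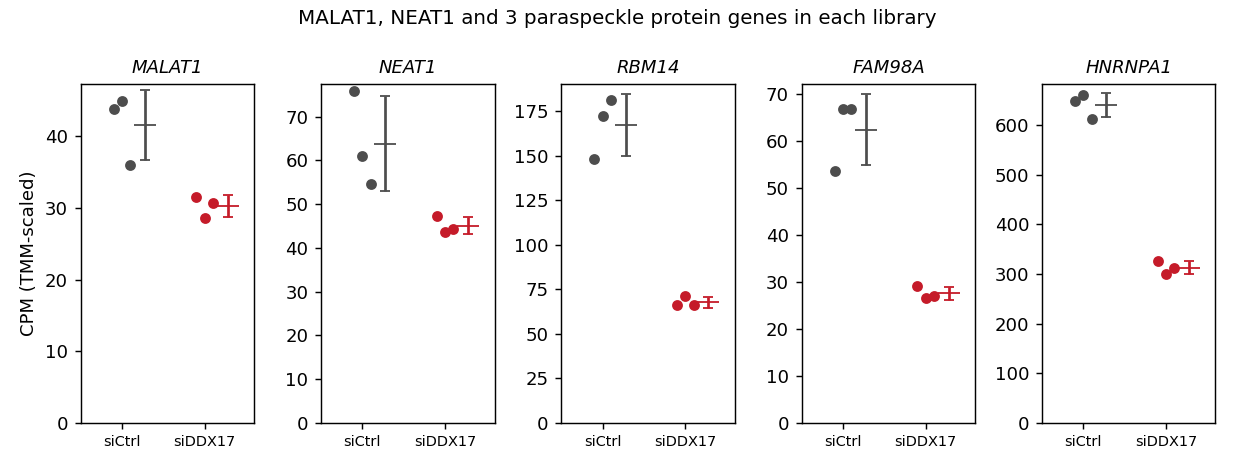
Level in CPM (vertical axes, which start at 0 and differ between panels) of MALAT1, NEAT1 and 3 paraspeckle protein genes past the fold limit in the 3 siCtrl (grey) and 3 siDDX17 (red) libraries. Points are libraries and bars are the mean ± SD beside them, and each knockdown library is below each control library in all 5 panels. All paraspeckle genes past the fold limit fell, and the 6 that rose within it are not drawn.

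Among the proteins that process or degrade nuclear RNA, changes went in both directions and stayed within the fold limit. Of 24 tested genes of the nuclear exosome and its adaptors, 10 fell, 6 rose and 8 did not pass, with log2 fold changes from -0.90 to 0.52. These are 41.7% lower and 25% higher, against 24.3% and 24.5% of all tested genes. Of 12 tested genes of RNase P and 3′ end processing, 5 fell, 4 rose and 3 did not pass, with log2 fold changes from -0.75 to 0.51, which are 41.7% lower and 33.3% higher. With library size only, 7 exosome genes and 1 RNase P gene fell. Without siCtrl 2 and without siDDX17 3, 2 RNase P genes fell.

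The 6 lincRNAs with the highest level per length were RP11-14N7.2 (now LINC02802), RMRP, LINC00657 (NORAD), RP11-462L8.1 (ITGB1-DT), RP11-38M8.1 (LINC03060) and LINC00998 (SMIM30, which encodes a small membrane protein). Of these, LINC02802 and RMRP fell, ITGB1-DT rose and the other 3 did not pass. LINC02802, at a mean of 33.2 FPKM, was at 35.9, 37.4 and 38.2 CPM in the control libraries, and the knockdown libraries were at 20.9, 21.92 and 22.1 CPM, without overlap (log2 fold change -0.78, SE 0.0647, adjusted p = 5.53e-07). ITGB1-DT is transcribed divergently from ITGB1, which encodes the integrin beta-1 subunit, and overlaps it on the other strand. At a mean of 20.8 FPKM, it was at 21.3, 15.6 and 14.9 CPM in the control libraries, with siCtrl 1 the highest, and the knockdown libraries were at 28.3, 27.95 and 27.0 CPM (log2 fold change 0.68, SE 0.112, adjusted p = 0.00022), whereas ITGB1 was at 1010 ± 65.25 and 929 ± 53.7 CPM (log2 fold change -0.12, adjusted p = 0.1485). LINC03060 was at a mean of 20.8 FPKM with a log2 fold change of -0.01 (adjusted p = 0.932), and SMIM30 was at 20.3 FPKM with 0.02 (adjusted p = 0.879).

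RMRP is the RNA of RNase MRP, which processes ribosomal RNA, and is made by RNA polymerase III without a poly(A) tail. Its counts were 368, 442 and 258 in siCtrl 1, 2 and 3 and 91, 94 and 314 in siDDX17 1, 2 and 3. Thus siDDX17 3 lay inside the range of the control group, while the other knockdown libraries were far below it. The log2 fold change of -1.32 (SE 0.377, adjusted p = 0.0104) became -2.15 without siDDX17 3. Leaving out siCtrl 2 (-1.02, adjusted p = 0.0522) or siDDX17 2 (-1.06, adjusted p = 0.0759) ended the call, as did DESeq2 (adjusted p = 0.0829). BCYRN1, a cytoplasmic RNA that is also a product of RNA polymerase III, also varied widely between libraries. Its counts were 1059, 5603 and 6201 in siCtrl and 2434, 3198 and 3101 in siDDX17. On the log2 scale the change was -0.76 (SE 0.418, adjusted p = 0.150), and without siCtrl 1 it was -1.24 (adjusted p = 4.80e-17). BCYRN1 has near-identical copies and resembles Alu repeats, so its counts of uniquely mapped reads are uncertain.

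NORAD (LINC00657, chromosome 20, minus strand, 36045618 to 36051018) has 1 exon and a mean level of 24.2 FPKM. It was at 145, 117 and 121 CPM in siCtrl and at 146, 136 and 143 CPM in siDDX17. The groups overlapped, because siCtrl 1 was as high as the knockdown libraries, and the log2 fold change of 0.15 (SE 0.0764, adjusted p = 0.123) did not pass. Without siCtrl 1 it was 0.24 and passed (adjusted p = 0.000125), as it did with library size only (0.27). The canonical transcript of 5401 bases holds 15 copies of the Pumilio motif TGTANATA on the sense strand. The letters are shown because NORAD binds these proteins through them: 10 copies read TGTATATA, 4 read TGTAAATA and 1 reads TGTACATA. Of the 212 lincRNAs with a canonical transcript, 30 held this motif at least once and 3 held at least 5. HCG11, named here after its motif count was seen, held 16 in 5696 bases, about the same density, 2.81 against 2.78 per kilobase. HCG11 was at 4.11, 3.01 and 2.99 CPM in siCtrl and at 4.23, 4.06 and 4.93 CPM in siDDX17, with a log2 fold change of 0.39 (adjusted p = 0.0514). The third, NEAT1, held 6 in 22743 bases.

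The 9 lincRNAs with the largest rises without overlap between the groups had log2 fold changes from 1.10 to 1.66. LINC01234 (chromosome 12, minus strand, 113583886 to 113773726), studied in gastric and lung tumors, had a mean level of 5.40 FPKM. It was at 13.05, 12.9 and 14.0 CPM in siCtrl and at 30.3, 29.2 and 30.8 CPM in siDDX17, with little spread in either group (log2 fold change 1.18, SE 0.0715, adjusted p = 3.62e-08). RP11-284F21.9 (BCAN-AS1), which starts 386 bases from BCAN, the gene of the brain matrix protein brevican, had a mean level of 5.99 FPKM and rose from 12.4 ± 1.24 to 27.2 ± 2.02 CPM (log2 fold change 1.13). CASC15 (chromosome 6, plus strand), at a locus of susceptibility to neuroblastoma, was at 5.46, 5.77 and 4.75 CPM in siCtrl and at 11.9, 12.4 and 10.75 CPM in siDDX17. It changed by 1.14 on the log2 scale (SE 0.105, adjusted p = 1.56e-06). LINC01106 rose from 4.45 ± 0.417 to 9.9 ± 0.342 CPM, and its log2 fold change was 1.15.

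The remaining risers had fewer counts, and no role is given for them here. RP11-212P7.2 (LINC03072, chromosome 7, minus strand, 1 exon) had counts of 79, 69 and 73 in siCtrl and 271, 233 and 251 in siDDX17 (log2 fold change 1.58, SE 0.131, adjusted p = 5.26e-07). RP5-884M6.1 (LINC02577) had the largest rise, with counts of 30, 28 and 28 in siCtrl and 126, 96 and 89 in siDDX17 (log2 fold change 1.66, SE 0.205, adjusted p = 2e-05). RP11-67L2.2 (LINC02035) had counts of 84, 44 and 61 against 187, 169 and 210, a log2 fold change of 1.40. In each of these 3 the lowest knockdown library was above the highest control library, as the choice of risers without overlap required. AC005355.2 (LINC01843) rose from 1.16 ± 0.176 to 2.5 ± 0.27 CPM (log2 fold change 1.10). RP11-214O1.2 rose with a log2 fold change of 1.40 and overlaps HS3ST3B1, a heparan sulfate sulfotransferase gene of the same strand that rose with a log2 fold change of 2.24, so its reads may be shared with that gene.

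The 10 lincRNAs with the largest falls without overlap had log2 fold changes from -1.83 to -1.14. RP11-473M20.16 (chromosome 16, minus strand, 3156736 to 3157483, 1 exon) fell most, with counts of 76, 114 and 149 in siCtrl and 44, 33 and 31 in siDDX17 (log2 fold change -1.83, SE 0.242, adjusted p = 3.68e-05). CH507-154B10.2 (chromosome 21) had counts of 70, 68 and 94 in siCtrl and 25, 28 and 32 in siDDX17, a log2 fold change of -1.63. RP5-875H18.9 had the highest level per length of these 10, 19.2 FPKM, and the smallest SE. It has 1 exon of 583 bases, 90 bases from PDK2, the gene of a mitochondrial pyruvate dehydrogenase kinase, on the same strand. It was at 16.8, 15.7 and 17.9 CPM in siCtrl and at 7.14, 6.67 and 6.96 CPM in siDDX17 (log2 fold change -1.28, SE 0.0873, adjusted p = 9.67e-08), while PDK2 was at 15.6 ± 2.42 and 14.6 ± 1.22 CPM (-0.09, adjusted p = 0.505). RP11-84A19.2, CASC9 and RP11-145G20.1 (LINC02267) fell with log2 fold changes of -1.30, -1.27 and -1.14. RP11-145G20.1, which lies at the count minimum, had counts of 47, 78 and 73 in siCtrl and 27, 29 and 47 in siDDX17. Its groups were thus apart only after scaling. CASC9, studied in esophageal cancer, went from 4.73 ± 0.722 to 1.96 ± 0.122 CPM.

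Several fallers sit in or beside a coding gene that did not fall. FAM83H-AS1 (now IQANK1, typed as protein-coding) fell from 3.7 ± 0.444 to 1.5 ± 0.431 CPM (log2 fold change -1.30), and FAM83H, on the other strand, was at 46.7 ± 0.184 and 47.2 ± 1.70 CPM (0.01, adjusted p = 0.864). CTD-2292M16.8 overlaps TTC5 on the same strand and fell with a log2 fold change of -1.28, beside -0.16 for TTC5 (adjusted p = 0.131). In contrast, CTD-2017D11.1 fell with -1.25 while the zinc finger gene ZNF254, which overlaps it on the same strand, rose with 0.72 (adjusted p = 0.00227). Likewise, RP11-54O7.17 fell with -1.19, and HES4, a Notch target 911 bases away, rose with 0.63 (adjusted p = 0.000143).

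**Figure D3:**
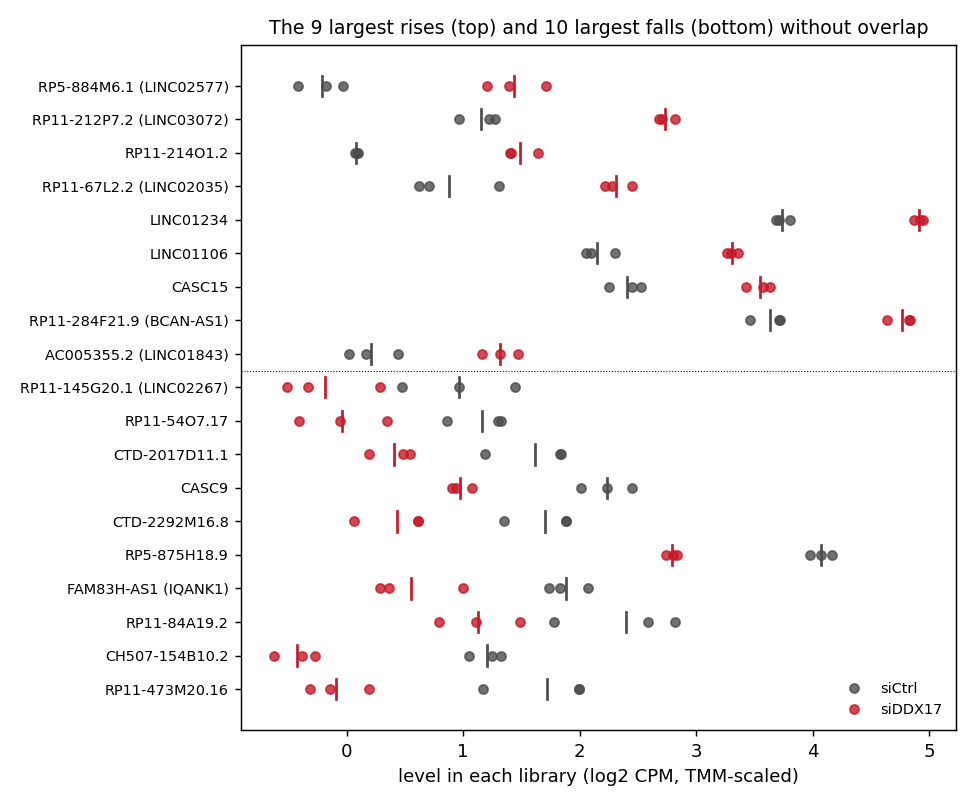
Level of the 9 lincRNAs with the largest rises and the 10 with the largest falls without overlap, in log2 CPM (horizontal axis), with 1 point per library, siCtrl in grey and siDDX17 in red, and a vertical tick at the mean of the log2 values of each group. LINC01234 and BCAN-AS1 (RP11-284F21.9) lie at the right with groups far apart, whereas RP11-145G20.1 and RP11-84A19.2 have groups that come close to each other.

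Of the list of well-characterised lincRNAs, 16 were among the 222, of which 3 rose, 4 fell and 9 did not pass. Of all tested genes, 24.5% rose and 24.3% fell. TP53TG1, an RNA induced by p53 (chromosome 7, minus strand, 87322943 to 87345560) was at 8.42, 8.25 and 7.29 CPM in siCtrl and at 14.4, 15.9 and 14.8 CPM in siDDX17 (log2 fold change 0.91, SE 0.0905, adjusted p = 2.80e-06). LINC01021 (PURPL), a p53-induced RNA that restrains p53 itself, was at 5.38, 4.96 and 5.15 CPM in siCtrl and at 2.57, 2.77 and 3.37 CPM in siDDX17 (log2 fold change -0.83, SE 0.136, adjusted p = 0.000224). PVT1, which neighbours MYC and is also induced by p53, was at 25.9 ± 0.579 and 23.2 ± 0.487 CPM (log2 fold change -0.16, adjusted p = 0.0597). Its groups did not overlap, but the change did not pass.

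LINC00152 (CYTOR), at a mean of 14.6 FPKM, fell by 0.20 on the log2 scale (40.9 ± 2.98 to 35.7 ± 1.87 CPM, adjusted p = 0.0316). This call was lost without any 1 of siCtrl 2, siCtrl 3, siDDX17 1 and siDDX17 3 (adjusted p = 0.0624 to 0.128) and with library size only (-0.08, adjusted p = 0.379). CCAT1, a colon cancer-associated transcript upstream of MYC, had a log2 fold change of -0.32 (adjusted p = 0.0676), which passed without siCtrl 3 (-0.40, adjusted p = 0.0325) and without siDDX17 3 (-0.44, adjusted p = 0.0336). LINC00511 had 40.4, 28.7 and 25.7 CPM in siCtrl and 33.8, 35.4 and 32.55 CPM in siDDX17. Its log2 fold change of 0.10 (adjusted p = 0.529) became 0.31 without siCtrl 1 (adjusted p = 0.000173). CRNDE and LINC01116 had log2 fold changes of 0.02 and 0.09 (adjusted p = 0.881 and 0.522).

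LUCAT1, a target of the oxidative stress factor NRF2 whose activity is high in A549 cells, was at 8.31 ± 0.267 and 8.47 ± 0.465 CPM (log2 fold change 0.03, SE 0.0922, adjusted p = 0.838). LINC00261, an endoderm RNA next to FOXA2, had counts of 39 to 91 in siCtrl and 68 to 96 in siDDX17 (log2 fold change 0.01, SE 0.225, adjusted p = 0.980), and FOXA2 was at 58.0 ± 1.83 and 60.5 ± 2.87 CPM. EPB41L4A-AS1 rose from 25.2 ± 2.72 to 32.1 ± 0.297 CPM (log2 fold change 0.35, adjusted p = 0.00237), together with EPB41L4A on the other strand (0.67, adjusted p = 2.55e-05).

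**Figure D4:**
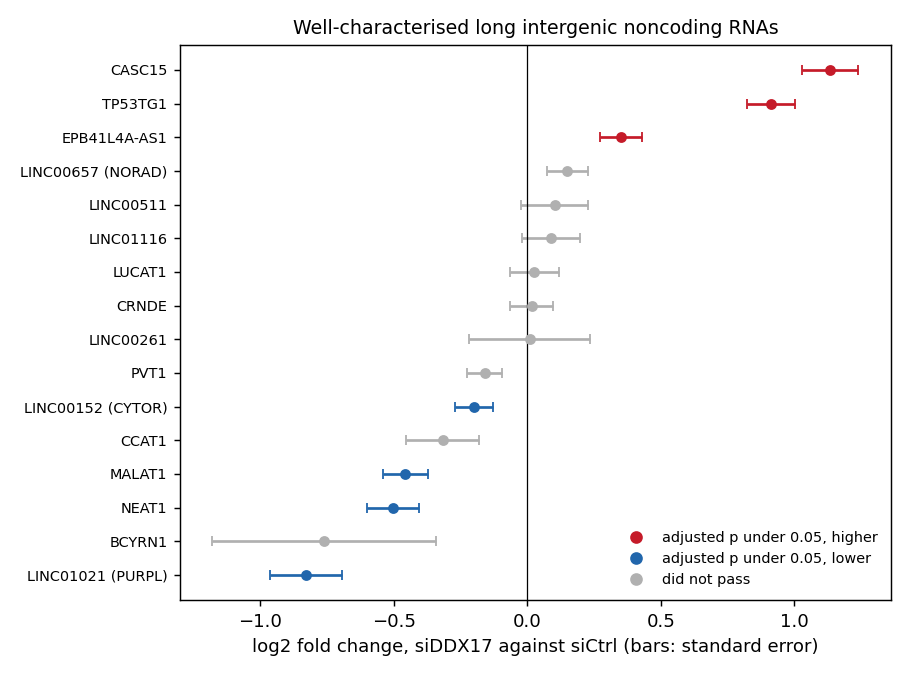
Log2 fold change between siDDX17 and siCtrl (horizontal axis) of the 16 well-characterised lincRNAs, with bars of 1 standard error. CASC15, TP53TG1 and EPB41L4A-AS1 (red) were higher and CYTOR, MALAT1, NEAT1 and PURPL (blue) lower at an adjusted p under 0.05, and the widest bar is that of BCYRN1.

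Many lincRNAs start head to head with a coding gene, within 1 kb and on the opposite strand, and are products of a divergent promoter. Of the 43 such lincRNAs, 17 rose, 3 fell and 23 did not pass, with a median log2 fold change of 0.203. These are 39.5% higher and 6.98% lower, against 24.5% and 24.3% of all tested genes. Of the antisense RNAs at the same count minimum, 31.3% rose and 13.7% fell. Of the 169 other lincRNAs 47 rose and 33 fell, with a median of 0.101. These differences were not tested. The coding partner was tested for 41 of the 43. Of these partners, 12 rose, 6 fell and 23 did not pass, and their median log2 fold change was 0.024. Of the 16 lincRNAs that rose among the 41, the partner rose in 4, fell in 3 and did not pass in 9. The 3 that fell had 1 partner that fell and 2 that did not pass.

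Individual pairs in which the lincRNA rose show a partner that rose, fell or did not pass. TP53TG1 rose with 0.91 beside a partner that did not pass, CROT, a peroxisomal carnitine acyltransferase gene, at 12.8 ± 1.23 and 11.7 ± 0.413 CPM (-0.13). The next 3 pairs were named after their values were seen. AC144652.1 (INSIG1-DT) rose with a log2 fold change of 0.97 together with INSIG1, a regulator of cholesterol synthesis (0.69). SRP14-AS1 (SRP14-DT) rose with 0.60 while SRP14, a subunit of the signal recognition particle, fell with -0.56. EIF3J-AS1 (EIF3J-DT) rose with 0.68 while the translation initiation gene EIF3J fell with -0.42.

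**Figure D5:**
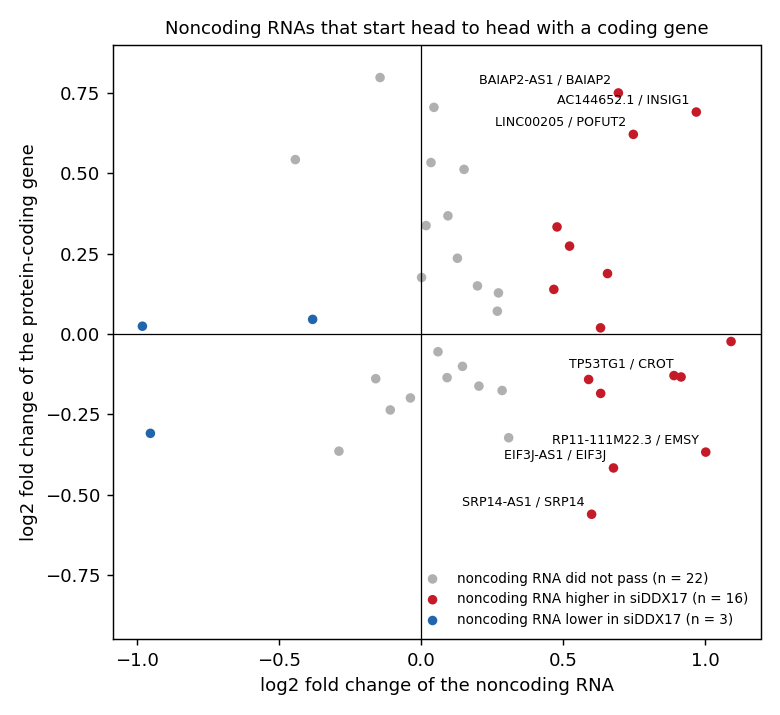
Log2 fold change of the lincRNA (horizontal axis) and of its coding partner (vertical axis) for the 41 head-to-head pairs in which both were tested, coloured by whether the lincRNA rose (red, 16), fell (blue, 3) or did not pass (grey, 22). The red points are spread above and below the horizontal line of no change, from SRP14 at -0.56 to BAIAP2 at 0.75.

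Over all distances, 169 lincRNAs had a nearest protein-coding gene that was tested. The signs of the log2 fold changes were the same in 56.8% of these pairs, and the correlation of the values was 0.121 (Pearson) and 0.0893 (Spearman), across pairs that share libraries and that are no independent replicates. Within 5 kb there were 99 pairs, with the same sign in 55.6%, and in 14 of them both passed, 7 in the same direction. FRMD8, 9249 bases upstream of NEAT1 on the same strand and named after its values were seen, fell from 42.7 ± 3.34 to 15.1 ± 0.460 CPM (log2 fold change -1.50, adjusted p = 7.07e-09).

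Promoter windows from 250 bases before to 50 bases after the start were found for 110 of the lincRNAs in RefSeq (GRCh38.p14), where a start can differ from that of GENCODE. They were searched on both strands for 6 motifs, each spelled out with its share in this paragraph. The GC box, GGGCGG, was present in 22 of the 37 windows of lincRNAs that rose (59.5%), in 7 of 14 of those that fell (50.0%) and in 45.0% of all 35116 windows of the table. CCAAT was present in 43.2%, 42.9% and 34.6%, and TATAAA in 13.5%, 7.14% and 11.5%. The motif of AP-1, TGANTCA, was present in 10.8%, 14.3% and 7.71%, and the E-box CACGTG in 5.41%, 14.3% and 7.26%. TGACGTCA, the cAMP response element, was in 0 windows of either group and in 1.85% of all. The median GC content was 66.7% in the windows of risers, 55.7% in those of fallers and 58.7% in all.

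Windows of 3 lincRNAs with large changes are shown, 5′ to 3′ on the strand of the lincRNA, with matches to any of the 6 motifs in capitals. LINC01234 (chr12:113773634-113773933, minus strand) and TP53TG1 (chr7:87345443-87345742, minus strand) rose, and LINC02267 (RP11-145G20.1, chr4:96310453-96310752, plus strand) fell.
LINC01234: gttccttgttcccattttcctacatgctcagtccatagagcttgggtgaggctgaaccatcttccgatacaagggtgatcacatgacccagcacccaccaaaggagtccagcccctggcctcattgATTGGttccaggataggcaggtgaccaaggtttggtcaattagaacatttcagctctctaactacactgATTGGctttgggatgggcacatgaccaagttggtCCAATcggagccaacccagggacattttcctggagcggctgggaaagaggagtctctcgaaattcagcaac
TP53TG1: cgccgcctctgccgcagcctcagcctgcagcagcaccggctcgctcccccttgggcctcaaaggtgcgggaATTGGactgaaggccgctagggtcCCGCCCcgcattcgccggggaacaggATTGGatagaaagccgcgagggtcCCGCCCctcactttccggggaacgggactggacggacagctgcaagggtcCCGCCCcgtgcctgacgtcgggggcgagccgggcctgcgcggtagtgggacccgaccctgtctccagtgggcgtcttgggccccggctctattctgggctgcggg
LINC02267: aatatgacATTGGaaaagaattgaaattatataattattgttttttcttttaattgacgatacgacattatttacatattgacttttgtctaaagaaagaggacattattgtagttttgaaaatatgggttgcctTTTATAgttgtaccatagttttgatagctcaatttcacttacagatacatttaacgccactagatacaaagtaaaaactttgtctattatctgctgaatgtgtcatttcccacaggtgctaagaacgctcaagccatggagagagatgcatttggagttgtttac
All 3 windows hold CCAAT or its reverse complement, and LINC01234 holds it 3 times with no GC box. TP53TG1 also holds GC boxes in a window of 70.7% GC, and LINC02267 has 31% GC with a match to TATAAA on the opposite strand. A match is a description of letters and no sign that a factor binds there.

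Short matches to the siRNAs were counted in the exons, since a lincRNA can pair with the seed (bases 2 to 8) of a siRNA strand. TATTGCT, which pairs with the seed of the DDX17 siRNA antisense strand, was in 48 lincRNAs, of which 12 rose and 8 fell, with a median log2 fold change of 0.098. In the 164 without it, 52 rose and 28 fell, and the median was 0.12. For comparison, 24.5% of all tested genes rose and 24.3% fell. MALAT1 and NEAT1 both hold this match, and both also hold a match to the other strand of the DDX17 siRNA and at least 1 match to the control siRNA. Longer transcripts have more places for a match, and the canonical transcripts of MALAT1 and NEAT1 have 10434 and 22743 bases, against a median of 1792 for the lincRNAs. The exons of all transcripts of a gene can be much longer than its canonical transcript. For LINC00511 they have 27664 bases, against 2929. The canonical length is therefore only a rough guide to the sequence in which matches were counted. The match to the control siRNA sense strand, TCGGAGA, was in 21 lincRNAs, of which 7 rose and 4 fell, with a median of 0.094. Of all lncRNA genes of the annotation, 10.8% hold TATTGCT and 3.85% hold TCGGAGA. Of the 222 lincRNAs, 21.6% and 9.46% hold them, although 10 of the 222 were not found in that annotation. These differences in share were not tested, and differences in exon length were not taken into account. For the sense strand of the DDX17 siRNA, the match ATGGGTG was in 49 lincRNAs, with a median of 0.104. For the antisense strand of the control siRNA, the match TGTCACG was in 22 lincRNAs, with a median of 0.065. The part of these matches in any change was not tested.

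Counts by structure and position are given without a test of their differences. Over all tested genes, 24.5% rose and 24.3% fell. Of 61 lincRNAs with 1 exon, 22 rose and 14 fell (36.1% and 23.0%), and of 151 with more exons, 42 rose and 22 fell (27.8% and 14.6%). Of the 70 without an overlapping gene, 28 rose and 11 fell (40.0% and 15.7%), with a median log2 fold change of 0.222. Of the 45 whose nearest protein-coding gene was over 50 kb away, 9 rose and 12 fell (20.0% and 26.7%), with a median of -0.029.

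Together the 222 lincRNAs took 0.154%, 0.153% and 0.149% of all counted reads in siCtrl 1, 2 and 3 and 0.168%, 0.167% and 0.173% in siDDX17 1, 2 and 3. The groups did not overlap, and the mean share was 0.152 ± 0.00299% and 0.169 ± 0.00301% (exact two-sided permutation test, p = 0.1, the smallest that 3 libraries against 3 allow). This share is scaled by library size only, under which the median log2 fold change of all tested genes was 0.128 and that of the lincRNAs 0.224. The difference of 0.0173 percentage points was 0.0195 without MALAT1 and NEAT1.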

How the data were processed

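Polyadenylated RNA of 6 A549 cultures was sequenced as stranded paired-end libraries, and groups and replicate numbers came from the sample labels. The authors mapped trimmed reads to GRCh38 with TopHat2, kept uniquely mapped reads and deposited raw counts per gene and FPKM values per library, without pooling. The counter, the annotation release and the use of strand are not given in the sources used here, so counts of genes that overlap or share sequence are uncertain. Counts that enter a fit were not altered, and the FPKM values were used for levels between genes and in alternatives.

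With edgeR 4.0.16 in R 4.3.3, counts were scaled by TMM, filtered by filterByExpr (15615 of 29476 rows kept) and tested by glmQLFit and glmQLFTest, siDDX17 against siCtrl, with Benjamini-Hochberg adjustment over all tested genes. A gene rose or fell when its adjusted p was under 0.05. The fold limit was an absolute log2 fold change of 1. Errors are those between libraries. Alternatives were other scalings and filters, DESeq2 1.42.0, edgeR's exact test, limma 3.58.1 on log2(FPKM + 1) and log2(FPKM + 0.1), a replicate block, each library left out, other count minimums, and the limits of the study's methods (p under 0.01, fold change of 1.5). The test was checked on simulated counts with the same spread for all genes and libraries. That check does not cover a library that stands apart, as siCtrl 1 did.

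The lincRNAs, the gene lists and the rule for names were chosen with earlier results of these data known. The rule names DDX17, MALAT1 and NEAT1, the 6 highest mean FPKM, the 10 largest rises and falls that passed without overlap, the well-characterised lincRNAs, 2 members inside and 2 rows outside the count minimum, list genes past the fold limit, and coding neighbours within 5 kb of these. A few results that the rule names are not reported here. Genes, exons and transcripts were those of GENCODE 44 and promoters those of RefSeq. Python 3.11.15 with pandas 2.3.3, numpy 2.4.6, scipy 1.17.1 and matplotlib 3.10.9 was used.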

Additional observations from a re-analysis of the deposited data

How the results depend on the processing

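Of the 222 lincRNAs, 55 to 72 rose and 32 to 44 fell in fits without 1 library, and 12 to 16 and 10 to 14 did so past the fold limit. A mean count minimum of 100 gave 42 risers and, past the fold limit, 5 fallers. A minimum of 20 gave 100 risers, and 25 risers and 19 fallers past the fold limit. These sets differ in size, so their counts do not compare as shares. The minimum of 100 drops 93 lincRNAs. That of 20 adds 212, of which 16.5% rose and 7.08% fell, against 24.5% and 24.3% of all tested genes. Keeping only the 70 lincRNAs without an overlapping gene left 28 risers and 11 fallers, 5 of the latter past the fold limit. Past the fold limit, 17 rose with upper quartile scaling and 24 with library size only. With limma on log2(FPKM + 1), on log2(FPKM + 0.1) and on log2(FPKM + 1) without a filter, 2, 19 and 2 rose and 3, 7 and 2 fell, and 20 fell at any fold in the last. A pseudocount of 1 shrinks the changes of RNAs at low FPKM. The limits of the study's methods gave 49 and 23. The share of upregulated among the lincRNAs that passed was 75% to 76.5% on the FPKM scales and 68.7% to 69.5% among all genes, where it was 50.1% with TMM. MALAT1 did not pass by limma on log2(FPKM + 1) without a filter (-0.26, adjusted p = 0.0749), and NEAT1 did not pass on log2(FPKM + 1), with or without the filter (-0.25, adjusted p = 0.0625 and 0.150), or on log2(FPKM + 0.1) (-0.35, adjusted p = 0.0568). On the 3 FPKM scales 5 exosome genes and 1 RNase P gene fell. RNase P genes that fell numbered 3 with upper quartile scaling, 1 with library size only and 2 to 6 with libraries left out. The difference in the share of reads was 0.0135 percentage points over reads of autosomal genes and 0.0216 without BCYRN1, the latter chosen after seeing the data. The cause of these differences was not tested.

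Among the other 39 named lincRNAs, 620 of 663 values under an alternative kept their direction and their side of the threshold, 15 no longer passed, 10 newly passed and 18 changed sign. Each sign change was in an RNA that did not pass with TMM nor under that alternative. RP11-38M8.1, at -0.01 with TMM, was at 0.017 with upper quartile scaling, 0.113 with library size only, and 0.122, 0.128 and 0.122 on the FPKM scales. With libraries left out, values ranged from -0.155 to 0.075 for RP11-38M8.1, from -0.026 to 0.07 for LINC00998, from -0.203 to 0.232 for LINC00261, from -0.029 to 0.051 for CRNDE, from -0.021 to 0.053 for LUCAT1 and from -0.032 to 0.312 for LINC00511. With no low-count filter BCYRN1 passed (-0.76, adjusted p = 3.42e-28), although its counts were those with which it did not pass in the main fit. This adjusted p does not measure the wide spread of BCYRN1 between libraries. The replicate block gave 64 risers and 38 fallers, and same-numbered libraries had correlations of deviations of 0.00698, 0.0407 and -0.0564. No shared effect of a replicate number is seen in these values, but they cannot show whether the cultures were run in pairs. Low counts limit what can be seen: the median standard error was 0.185 for the 93 lincRNAs with mean counts under 100 and 0.0987 over all tested genes.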
